A study of Mus musculus with 16 samples.

Results

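The comparison described here was between mouse monocytes stimulated for 24 h and for 6 h. Its members were the libraries whose titles name the combined stimulus, 4 at 24 h and 4 at 6 h, which makes 8 of the 16 libraries of the series. The cells of all 8 were monocytes of C57BL/6 mice that received IFN-γ, the activating cytokine of T cells and NK cells, for 1 h and then MegaCD40L (1 ug/mL), a multimeric form of the T cell ligand that engages CD40. The 6 h group held libraries 26 and 10, titled NFAM1+/+, and libraries 11 and 12, titled NFAM1-/-. The 24 h group held libraries 56 and 57, titled NFAM1+/+, and libraries 55 and 58, titled NFAM1-/-, but the genotype tags of libraries 56 and 58 state the opposite of their titles. The NFAM1-/- mice carry a germline CRISPR deletion of exons 2 and 3. Genotypes were pooled for this reason. The other 8 libraries, 4 at 6 h and 4 at 24 h, came from monocytes of both genotypes cultured without the stimulus, title and tag again disagreeing for libraries 44 and 46 at 24 h, and their values stand beside the stimulated ones as the background of culture time.

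Nfam1 itself, which encodes an immunoreceptor tyrosine-based activation motif receptor, was at 133, 129, 135 and 127 CPM in 6 h libraries 26, 10, 11 and 12, and at 201, 271, 252 and 223 CPM in 24 h libraries 55, 56, 57 and 58. CPM values, reads per 1e+06 of the scaled library size, are the deposited log2 values on the linear scale. Libraries of both titled genotypes overlapped at 6 h, while at 24 h the libraries titled NFAM1-/-, 55 and 58, were below 56 and 57. Without the stimulus, libraries 1 and 2, NFAM1+/+, were at 432 and 408 CPM at 6 h, and libraries 3 and 4, NFAM1-/-, at 299 and 321 CPM. At 24 h libraries 44 and 45, titled NFAM1+/+, were at 463 and 495 CPM, and 43 and 46, titled NFAM1-/-, at 441 and 391 CPM. Gene-level values also cover exons outside the deletion, so a deletion need not remove them, and which genotype label is right was not tested. With the stimulus all 24 h values lay above all 6 h values, with a log2 fold change of 0.85 (SE 0.09). It stayed under the 2-fold minimum, although it was 1.22 with libraries scaled to their total reads and 1.19 after quantile normalization.

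IFN-γ acts through receptor-bound Janus kinases and STAT factors, which induce interferon regulatory factors, guanylate-binding proteins, CXCR3 ligand chemokines and, through the transactivator CIITA, MHC class II. CD40 is a TNF receptor family member that recruits TRAF adaptors and activates both NF-κB pathways, and in monocytes and macrophages it drives cytokine, chemokine and costimulatory genes. Many of these genes are under early negative feedback by proteins such as SOCS1, while others, including antigen presentation and metabolic genes, are known to change over a longer period. Monocytes in culture also lose contact with the marrow or blood environment, stop dividing and may take on macrophage features, so culture time alone is a comparison of its own.

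The labelled cell type was checked against its markers. All 10 monocyte identity genes were measured, and their summed level was 9981 to 12066 CPM at 6 h and 12339 to 14373 CPM at 24 h. Csf1r, the receptor for the monocyte growth factor, fell (log2 fold change -1.20, SE 0.08), and Fcgr1, the high-affinity IgG receptor, fell (-2.39, SE 0.09). Lyz2, the lysozyme gene of myeloid cells, did not pass (0.82, SE 0.18). In unstimulated cells the summed level of the 10 genes was higher, 22247 to 24641 CPM at 6 h and 27583 to 32627 CPM at 24 h. Fcgr1 was at 28 to 35.9 CPM at 6 h without the stimulus and at 620 to 760 CPM with it, so it also follows the stimulus. In the stimulated libraries, totals of 64285583 to 78714274 reads at 6 h and 64627041 to 77256316 reads at 24 h lay on the listed genes. The labels give no batch, mouse or culture identity, so time cannot be told apart from preparation or sequencing run, and p-values measure the spread between these libraries only, which may be technical.

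Promoter stretches with a motif of the factor class known for 6 of the gene groups are shown to give the sequence context of genes described below. Each is read 5′ to 3′ on the strand of its gene from RefSeq promoters of build GRCm38.p6, with the motif match in capitals and 20 bases on each side. Rsad2 and Ctsd hold the reverse complement of the motif.
Rsad2, an antiviral gene, interferon-stimulated response element, chr12:26456543-26456592, minus strand: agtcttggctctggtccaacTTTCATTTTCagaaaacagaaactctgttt
Gbp7, an interferon-inducible GTPase, gamma-activated sequence, chr3:142530229-142530277, plus strand: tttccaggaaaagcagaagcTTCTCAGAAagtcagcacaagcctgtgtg
H2-Oa, MHC class II, Y box, chr17:34092313-34092360, plus strand: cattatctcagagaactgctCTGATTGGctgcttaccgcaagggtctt
Hmgcs1, cholesterol synthesis, sterol regulatory element, chr13:119690194-119690242, plus strand: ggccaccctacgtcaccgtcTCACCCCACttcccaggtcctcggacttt
Ctsd, a lysosomal protease, CLEAR element, chr7:142387899-142387945, minus strand: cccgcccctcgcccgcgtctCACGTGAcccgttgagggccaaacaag
Cdk1, the mitotic kinase, E2F site, chr10:69352914-69352961, minus strand: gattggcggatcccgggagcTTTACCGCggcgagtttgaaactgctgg

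The matches lie upstream of the start of the gene. Under the name E2F site the letters TTTNNCGC were searched, with any 2 bases inside, so a match need not be a full E2F site. The interferon-stimulated response element was searched as GAAA, any 2 bases and GAAA, on both strands as were all motifs. Each gene was counted once, as holding the motif if any of its promoters did, here and below. The element was in 14 of the 21 antiviral genes with a promoter in the table (66.7%), against 3.99% of all 27025 genes with promoters of the same length. TTCNNNGAA was in 6 of 11 interferon-inducible GTPase promoters (54.5%), against 9.55% of all. CTGATTGG was in 3 of 8 MHC class II promoters (37.5% against 4.7%), TCACNCCAC in 1 of 16 cholesterol synthesis promoters (6.25% against 1.44%), TCACGTG in 9 of 24 lysosomal promoters (37.5% against 4.29%) and TTTNNCGC in 8 of 29 cell cycle promoters (27.6% against 5.93%). Among antiviral genes the motif was in 9 of the 13 promoters of genes that fell and in 5 of the 8 others, so it was common to members on both sides of the threshold. In the other lists genes that rose (MHC class II, lysosome) or fell (GTPases, cholesterol synthesis, cell cycle) were set against all other members. Those others include any member that passed in the opposite direction. The motif searched for that list was in 3 of 5 and 0 of 3 others for MHC class II, and in 2 of 5 and 4 of 6 for the GTPases. It was in 1 of 9 and 0 of 7 for cholesterol synthesis, 4 of 7 and 5 of 17 for the lysosome, and 7 of 25 and 1 of 4 for the cell cycle. These letters are a description of the windows and name no bound factor.

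Of 11431 genes tested, 1848 (16.2%) were higher and 1907 (16.7%) lower at 24 h than at 6 h, by at least 2-fold at an adjusted p under 0.05 in limma. A gene that met both criteria is called one that rose or fell throughout. The 16.2% and 16.7% are the background for the list counts below. Most genes separated the times even without this size, since the 4 libraries of one time lay wholly above those of the other in 37% of tested genes with 24 h higher and in 34.3% with 6 h higher. The median log2 fold change of all tested genes was 0.05. The split between directions depended on scaling: 49.2% of calls were higher as deposited, 70% with each library scaled to its total reads, where the median of all genes was 0.42, and 39.9% with libraries centred on their medians. No gene that rose or fell as deposited took the opposite sign under any of these scalings.

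**Figure D1:**
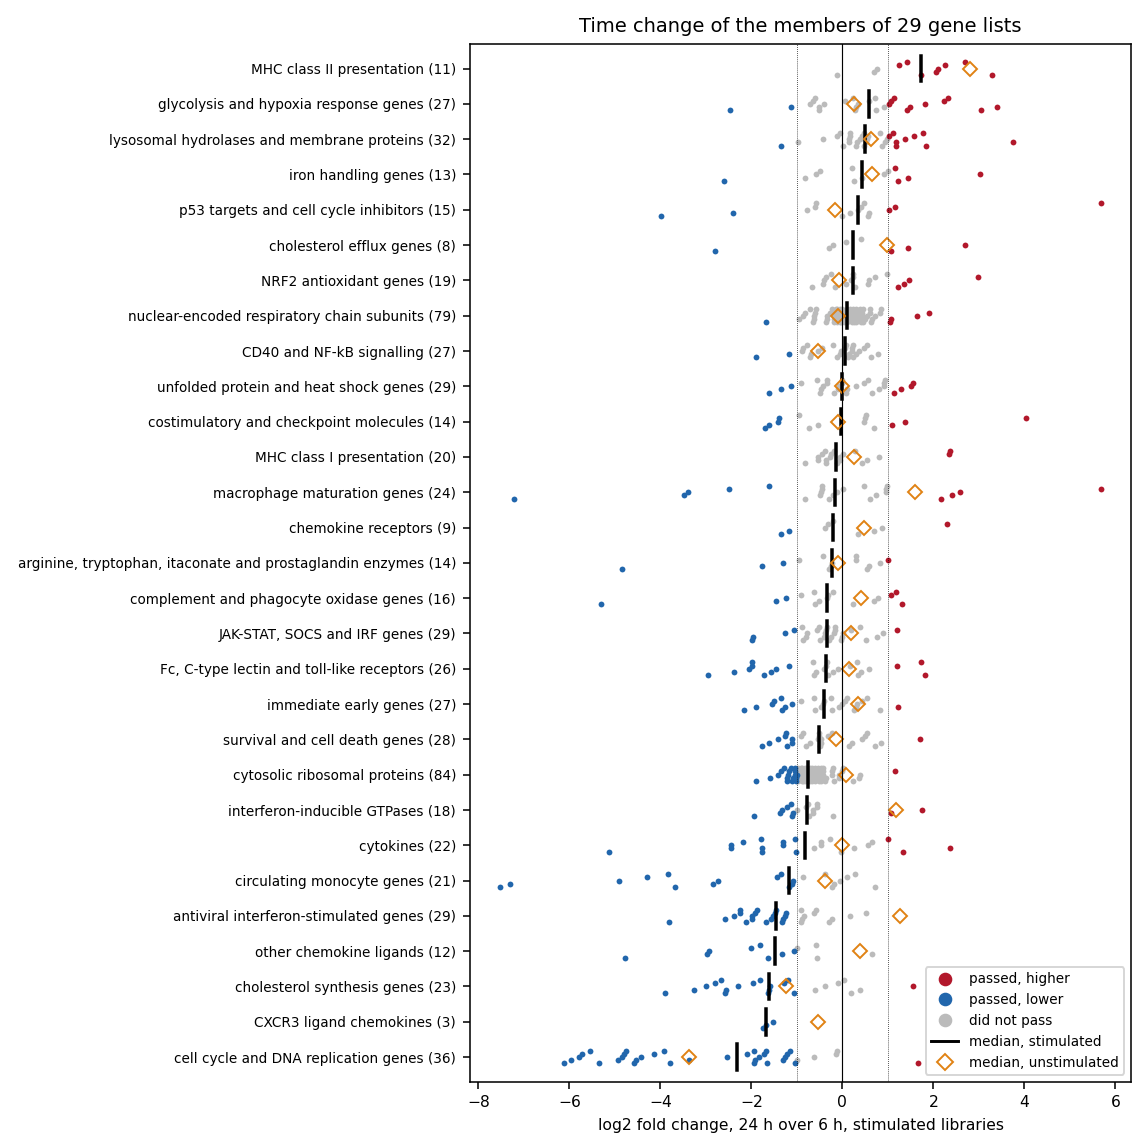
Log2 fold change between 24 h and 6 h (x axis) for the tested members of 29 gene lists (rows, with the number of tested members in brackets), as points coloured by whether a gene passed the test. Black bars are medians in stimulated libraries and open diamonds the medians of the same lists without the stimulus, and the median bar runs from 1.73 for MHC class II presentation to -2.32 for cell cycle genes.

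The genes with the largest rises were near the detection limit at 6 h. Orm1, an acute-phase plasma protein, had 10, 12, 0 and 2 reads in the 6 h libraries 26, 10, 11 and 12 and 506, 815, 677 and 343 reads in the 24 h libraries 55, 56, 57 and 58. Gpr4, a proton-sensing receptor, had 10, 22, 4 and 0 reads at 6 h and 600, 865, 656 and 475 reads at 24 h. Adm, which encodes the vasoactive peptide adrenomedullin, had 2, 4, 0 and 0 reads at 6 h and 114, 114, 86 and 110 reads at 24 h. In each gene the times did not overlap by a wide margin, but the size of the fitted change depends on the offset given to libraries with few reads. Sorbs3 (log2 fold change 6.82), Adam11 (6.69), Fam167a (6.57), Cplx2 (6.51), Adamtsl5 (6.40), Htra3 (6.39) and Wnk2 (5.82) completed the 10 largest rises, all starting from under 1 CPM in each 6 h library. Wnk2, a kinase, varied most of these 10 among the 24 h libraries, from 7.06 CPM in library 58 to 49.1 CPM in library 56. Of the 10, Sorbs3 (4.84), Adam11 (3.85), Wnk2 (2.96) and Orm1 (2.72) also rose in unstimulated cells, and the others did not pass there. Htra3 was at 3.47 to 6.29 CPM in unstimulated libraries, beside 1.61 to 4.11 CPM in stimulated ones at 24 h.

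The largest falls included monocyte, alarmin and granule protease genes. Il33, which encodes an alarmin cytokine, had 295, 240, 290 and 162 reads in the 6 h libraries and 0 reads in all 4 libraries at 24 h, which makes it at least 424-fold lower against a floor of 3 reads over the 24 h group. Hist1h1b, a replication-dependent linker histone, was likewise at 0 reads at 24 h and at least 285-fold lower, Uaca at least 156-fold lower and the immunoglobulin light chain segment Igkv15-103 at least 175-fold lower. Even counts made up 80.6 to 89.6% of values between 1 and 20 reads, as when both mates of a pair are counted, and with a floor of 3 pairs the bound for Il33 is 212-fold. Elane, the neutrophil elastase gene that is also transcribed in granulocyte and monocyte progenitors, had 310, 480, 526 and 580 reads at 6 h and 2, 6, 0 and 0 reads at 24 h. Prtn3, the neighbouring protease of the same granules, went from 853, 1316, 1786 and 1824 reads to 22, 8, 12 and 10 reads. Igkv1-117, another light chain segment, had 124, 88, 169 and 247 reads at 6 h and 1 read in all at 24 h. Segments of this family share sequence, so that their reads may be split between copies. In unstimulated cells Igkv15-103 (log2 fold change -7.77), Hist1h1b (-6.01), Il33 (-5.04, from at most 0.394 CPM) and Prtn3 (-3.06) also fell. Elane, Uaca and Igkv1-117 did not pass there.

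The interferon response genes were mostly lower at 24 h, while still far above unstimulated cells. Cxcl10, a chemokine that attracts CXCR3-bearing T cells, was at 6527, 7914, 8763 and 8907 CPM at 6 h and at 2583, 2160, 2334 and 2388 CPM at 24 h. The times did not overlap, and the log2 fold change was -1.75 (SE 0.11, adjusted p = 1.4e-07). Unstimulated libraries were between 13.3 and 27.6 CPM, so Cxcl10 remained well above them at 24 h. All 3 CXCR3 ligands fell, Cxcl11 by 1.68 and Cxcl9 by 1.52 on the log2 scale, although Cxcl9 was within 2-fold after quantile normalization.

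Of the 29 antiviral interferon-stimulated genes tested, 19 fell, 0 rose and 10 did not pass, with a median log2 fold change of -1.47. Scaled to total reads, 15 fell. Cmpk2, a mitochondrial nucleotide kinase next to Rsad2, was at 1653, 1735, 1690 and 1922 CPM at 6 h and at 108, 136, 131 and 128 CPM at 24 h, a log2 fold change of -3.80 (SE 0.08, adjusted p = 9.4e-10). Both groups were tight and far apart. Rsad2, which encodes the antiviral enzyme viperin and whose promoter match is printed above, was at 4360, 3135, 2878 and 3476 CPM at 6 h and at 573, 749, 731 and 588 CPM at 24 h (log2 fold change -2.38, SE 0.14). Mx2 (-2.58), Mx1 (-2.25) and the translation-blocking kinase gene Eif2ak2 (-2.25) fell similarly, and the Ifit genes fell by 1.88 to 2.12 on the log2 scale. Bst2, which encodes tetherin, was at 0.51 and Ifi44 at 0.17, and neither passed. Without the stimulus the same 29 genes went the other way, with 18 higher at 24 h, 1 lower and a median of 1.26.

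Among the 18 interferon-inducible GTPases, which act against intracellular pathogens, 7 fell, 2 rose and 9 did not pass, with a median of -0.78. This count leaned on scaling, as only 1 fell with libraries scaled to total reads. Gbp2 was at 22790, 22797, 24061 and 25443 CPM at 6 h and at 5955, 6503, 6335 and 5839 CPM at 24 h (log2 fold change -1.95, SE 0.09, adjusted p = 2.1e-08). Its close relative Gbp2b went up, from 77.2, 38.8, 41.4 and 51.6 CPM to 166, 158, 161 and 197 CPM (1.76, SE 0.18). Gbp8 also rose (1.06, SE 0.08). The copies of this family are similar in sequence, and the counting of shared reads is not given in the sources used here.

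The signalling genes upstream moved less. Of 29 JAK-STAT, SOCS and IRF genes, 4 fell and 1 rose, shares under the 16.7% and 16.2% of all genes. Socs1, the feedback inhibitor of JAK kinases, was at 909, 1226, 1406 and 1388 CPM at 6 h and at 374, 336, 295 and 258 CPM at 24 h (log2 fold change -1.96, SE 0.15). Cish, another feedback inhibitor, Stat2 (-1.27) and Irf8 (-1.05) fell, and Batf, a partner of IRF factors, rose (1.21). Irf1, an early interferon-induced factor, did not reach 2-fold (-0.41, SE 0.07). The list median of -0.34 became 0.03 with total-read scaling, so no direction of the list as a whole is given.

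Cytokine genes were divided, with 11 of 22 lower and 3 higher at 24 h. Ifnb1, which encodes interferon-β, itself an inducer of antiviral genes, was at 35.2, 56.6, 53.9 and 78.5 CPM at 6 h and at 0.88, 1.74, 1.75 and 2.17 CPM at 24 h (log2 fold change -5.12, SE 0.29, adjusted p = 7.8e-08). Its 24 h values were low but above those of unstimulated cells, which reached at most 0.2 CPM. Tnf, the inflammatory cytokine gene whose product was the main readout of the study, was at 1731, 1575, 1248 and 1223 CPM at 6 h and at 397, 357, 452 and 496 CPM at 24 h (-1.76, SE 0.13). Csf1 and Il18 each fell by 2.45 on the log2 scale, Il27 by 1.78 and Il15 by 1.30. In contrast, Il6 was at 20.7, 17.2, 12.4 and 16 CPM at 6 h and at 43.3, 49.1, 52.4 and 24.7 CPM at 24 h (1.32, SE 0.23), the lowest 24 h value being that of library 58. Tnfsf13, which encodes the B cell factor APRIL, rose (2.36, SE 0.41), as did Lta (1.01, SE 0.25). Il12b and Il1b did not pass, and for Il12b the 6 h libraries themselves ran from 26.4 to 174 CPM. With total-read scaling 7 cytokine genes fell and 4 rose.

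Of 12 other chemokine ligands, 8 fell and 0 rose. Ccl9 was at 104, 105, 123 and 123 CPM at 6 h and at 3.85, 5.89, 4.4 and 3.02 CPM at 24 h (log2 fold change -4.77, SE 0.17). Unstimulated cells kept 435 to 586 CPM of Ccl9 at both times, so the 24 h stimulated value was below the unstimulated one. Ccl4 (-2.94), Ccl3 (-2.01), Ccl6 (-1.81) and the CCR2 ligand Ccl2 (-1.34) fell, while Ccl5, at 1441 to 2728 CPM and 1604 to 3782 CPM, overlapped between times. Of 9 chemokine receptors, Ccr7, the lymph node homing receptor, rose (2.30, SE 0.40), and Ccr2 (-1.35, SE 0.24) and Cx3cr1 (-1.18, SE 0.15) fell, though both came within 2-fold with total-read scaling.

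Few CD40 and NF-κB signalling genes passed, as 2 of 27 fell, 0 rose and the median of 0.05 equalled that of all genes. Nfkb1, the p105 precursor gene, was at 1357, 1270, 1157 and 1091 CPM at 6 h and at 318, 317, 343 and 329 CPM at 24 h (log2 fold change -1.90, SE 0.07). Birc3 also fell (-1.17, SE 0.06), but came within 2-fold with total-read scaling and quantile normalization. Cd40 itself was at -0.70 (SE 0.06), and the noncanonical pathway genes Nfkb2 (0.36) and Relb (0.54) did not pass. Of 27 immediate early genes, 8 fell, among them Egr1 (-2.17, SE 0.19), Atf3 (-1.89, SE 0.20) and Jun (-1.27, SE 0.10), and Fosl1 rose (1.23, SE 0.49), but with total-read scaling 4 fell, 2 rose and the median went from -0.41 to -0.03.

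**Figure D2:**
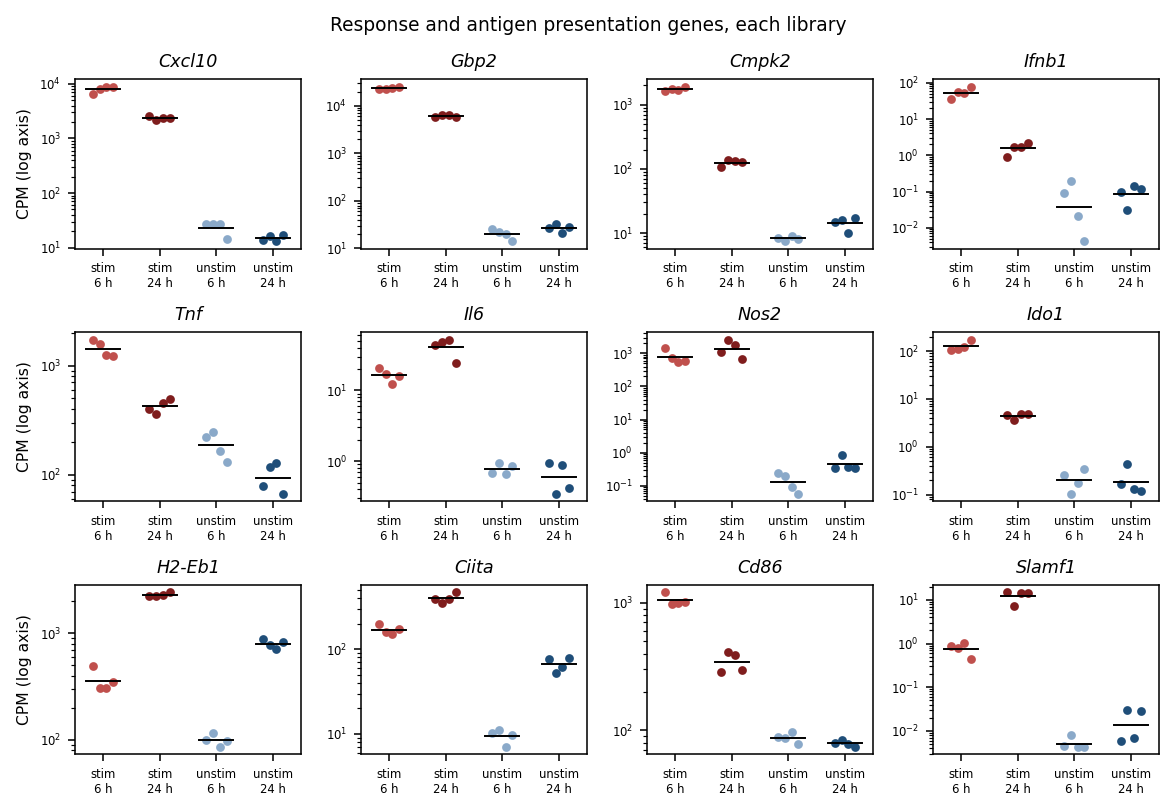
CPM on a log axis for 12 response and antigen presentation genes, with 1 point per library and a bar at the geometric mean of each of 4 groups (stimulated and unstimulated, 6 h and 24 h, 4 libraries each). Cmpk2 drops from 1653 to 1922 CPM to 108 to 136 CPM with the stimulus, H2-Eb1 climbs in both conditions, and points far below 0.1 CPM stand for 0 to a few reads.

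MHC class II presentation was the list with the highest median, 1.73, with 8 of 11 genes higher at 24 h and 0 lower. H2-Oa, a subunit of the peptide-loading modulator DO whose Y box is printed above, was at 8.11, 5.02, 5.51 and 8.56 CPM at 6 h and at 68.8, 45.6, 59.1 and 92.6 CPM at 24 h (log2 fold change 3.28, SE 0.23, adjusted p = 3.1e-07). H2-Eb1, a class II β chain, was at 494, 303, 306 and 349 CPM at 6 h and at 2243, 2257, 2283 and 2418 CPM at 24 h (2.69, SE 0.14, adjusted p = 3.4e-08). H2-Aa (2.26), H2-Ab1 (2.05) and the invariant chain gene Cd74 (1.41) rose with them. Ciita, the transactivator of the class, was at 199, 160, 153 and 172 CPM and at 396, 351, 395 and 470 CPM (1.24, SE 0.10). The 24 h libraries lay wholly above the 6 h libraries in 10 of the 11, beside 37% of all genes. H2-Ob, the partner subunit of H2-Oa, was at -0.12 (SE 0.15). The class also climbed without the stimulus, where 11 of 11 were higher at 24 h with a median of 2.80. H2-Eb1 there went from 86 to 116 CPM to 706 to 882 CPM.

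Of 20 MHC class I presentation genes, 2 rose and 0 fell, both of the nonclassical Q region. H2-Q6 was at 258, 284, 299 and 223 CPM at 6 h and at 1405, 1436, 1345 and 1244 CPM at 24 h (log2 fold change 2.36, SE 0.09), and H2-Q7 at 2.34 (SE 0.11). Without the stimulus H2-Q6 went from 76.8 to 132 CPM down to 12.8 to 24.7 CPM. H2-Q6 and H2-Q7 are near-identical, so their reads may be split between them and they are not separate observations. H2-K1 (0.53), B2m (0.02), Tap1 (-0.38) and H2-D1 (-0.54) did not pass. The list median was -0.15, and 0.22 with total-read scaling.

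Costimulatory genes went in both directions. Cd86, a ligand of CD28, was at 1203, 972, 993 and 1015 CPM at 6 h and at 288, 410, 387 and 295 CPM at 24 h (log2 fold change -1.61, SE 0.12), and Cd83 (-1.40), Icosl (-1.41) and Havcr2 (-1.70) fell. Slamf1, a self-ligand receptor, was at 0.865, 0.782, 1.01 and 0.442 CPM at 6 h and at 14.8, 7.13, 14.1 and 14.3 CPM at 24 h (4.03, SE 0.30). Vsir (1.38) and Tnfsf9 (1.08) also rose. Cd80 (0.48), Cd274, which encodes PD-L1 (0.52), and Pdcd1lg2 (0.50) were within 2-fold. In all, 3 of 14 rose and 4 fell.

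Of 14 enzymes of arginine, tryptophan, itaconate and prostaglandin metabolism, 1 rose, 3 fell and 10 did not pass. Ido1, which starts tryptophan breakdown, was at 108, 113, 121 and 175 CPM at 6 h and at 4.69, 3.62, 4.74 and 4.88 CPM at 24 h (log2 fold change -4.84, SE 0.15, adjusted p = 2.8e-09), still above the unstimulated range of 0.104 to 0.444 CPM. Kmo, a later enzyme of that pathway, fell (-1.77, SE 0.18), as did Gch1 (-1.31, SE 0.08), which makes the cofactor of nitric oxide synthase. Nos2, the inducible nitric oxide synthase, was at 1465, 699, 561 and 602 CPM at 6 h and at 1094, 2623, 1759 and 696 CPM at 24 h. These ranges overlapped, and the difference of 0.84 (SE 0.40, adjusted p = 0.077) did not pass. Acod1, the itaconate enzyme, was at -0.29 (SE 0.14), and Ptges rose by 1.01 (SE 0.27), at the edge of the 2-fold minimum.

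Of 26 Fc, C-type lectin and toll-like receptors, 9 fell and 3 rose. The endosomal receptors Tlr8 (log2 fold change -2.96, SE 0.18), Tlr3 (-2.05), Tlr9 (-1.99) and Tlr7 (-1.18) fell, as did Myd88 (-1.72, SE 0.06), the adaptor of most toll-like receptors but not of TLR3, while the surface receptors Tlr2 (-0.64) and Tlr4 (-0.35) did not pass. The activating Fc receptors Fcgr1 (-2.39) and Fcgr4 (-1.56) fell and the inhibitory receptor Fcgr2b rose (1.82, SE 0.10). In the complement and oxidase list 3 of 16 rose and 3 fell, close to the 16.2% and 16.7% of all genes, and 5 rose and 2 fell with total-read scaling. The C1 inhibitor gene Serping1 was at 1.30 (SE 0.14) and properdin, Cfp, at -1.47 (SE 0.20).

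Circulating monocyte genes were among the lists with most falls, with 13 of 21 lower and 0 higher. Fn1, which encodes fibronectin, was at 423, 616, 740 and 714 CPM at 6 h and at 2.81, 3.63, 3.87 and 3.02 CPM at 24 h (log2 fold change -7.53, SE 0.17, adjusted p = 9.4e-10). F13a1, the A subunit of coagulation factor XIII, was at 101, 185, 212 and 203 CPM and at 0.911, 0.801, 1.3 and 1.39 CPM (-7.30, SE 0.25). Unstimulated cells had 2096 to 3013 CPM of Fn1 and 552 to 881 CPM of F13a1 at 24 h, so for both genes the stimulated libraries were the low ones. In bulk RNA, fewer cells of a type and less RNA per cell cannot be told apart. Vcan (-4.91, SE 0.15), Chil3 (-4.29, SE 0.44) and S100a4 (-3.67, SE 0.14) fell. In culture without the stimulus 7 of the list also fell, Vcan (-3.27) and Chil3 (-2.24) among them, and 3 rose. Ly6c2, which defines classical mouse monocytes, was at 2200 to 2505 CPM and 2124 to 2965 CPM and showed no detectable change (0.09, SE 0.10, adjusted p = 0.44). With total-read scaling 9 of the list fell and 1 rose.

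In the macrophage maturation list 4 of 24 genes rose and 5 fell, close to the 16.2% and 16.7% of all genes, and with total-read scaling 8 rose and 5 fell. Spp1, the osteopontin gene, was at 33.6, 49.7, 49.1 and 57.6 CPM at 6 h and at 0.188, 0.537, 0.217 and 0.433 CPM at 24 h (log2 fold change -7.22, SE 0.33). Apoe, the lipid-carrier apolipoprotein, was at 141, 143, 193 and 253 CPM and at 13.9, 16.2, 18.8 and 15.1 CPM (-3.48, SE 0.18), and went the other way without the stimulus, from 1317 to 1914 CPM to 4536 to 5882 CPM. Lpl (-3.38), Trem2 (-2.48) and the transcription factor Maf (-1.61) fell too. On the other side, Ctsk, a collagen-degrading protease, went from 0.0848 to 0.701 CPM to 22.6, 24.3, 24.4 and 10.9 CPM (5.68, SE 0.61), and Gpnmb (2.59), Fabp5 (2.42) and Mertk (2.18), a receptor for dying cells, rose. Without the stimulus, in the fit of all 16 libraries where 30 members passed the filter, 17 were higher and 1 lower. The members added there passed only with unstimulated libraries counted. The median with the stimulus was -0.17, or 0.20 with total-read scaling.

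**Figure D3:**
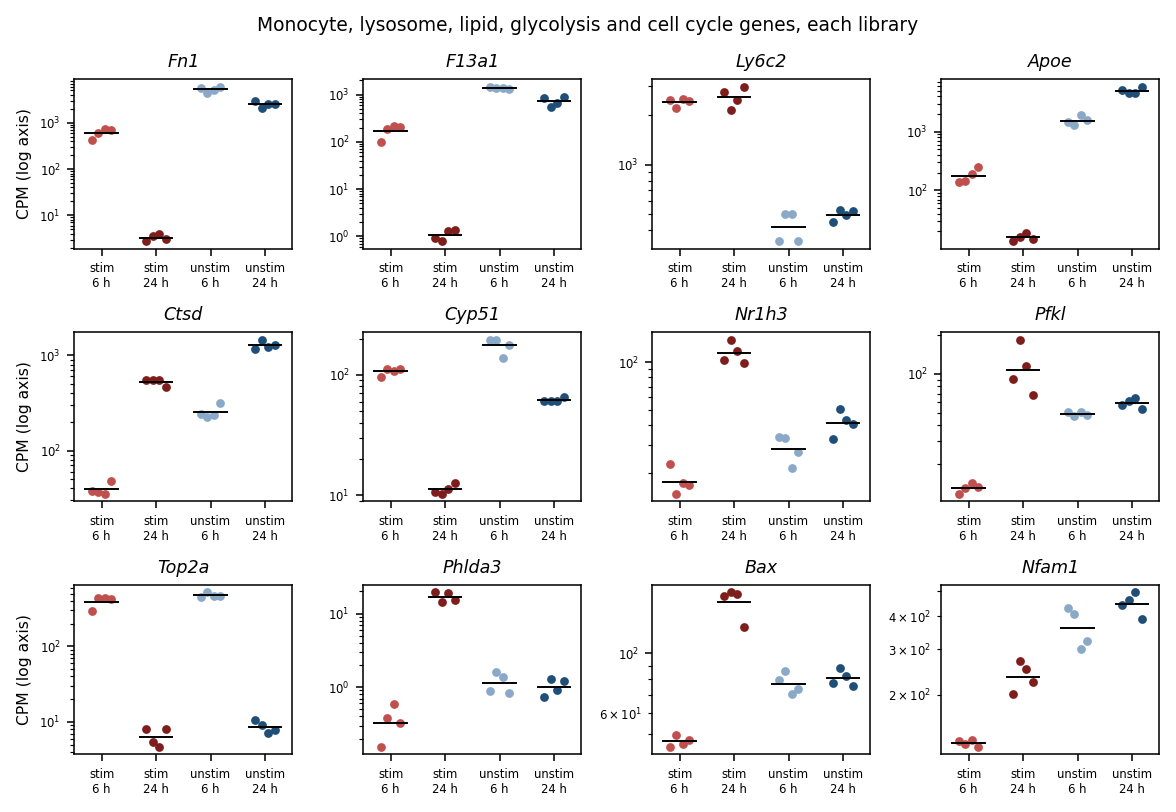
CPM on a log axis for 11 genes of the monocyte, macrophage, lysosome, lipid, glycolysis, cell cycle, p53 and death lists and for Nfam1, with 1 point per library and a bar at the geometric mean of each of 4 groups of 4 libraries. Fn1 is between 2.81 and 3.87 CPM in stimulated cells at 24 h and at least 2096 CPM in every unstimulated library, while Top2a drops between times in both conditions.

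Of 32 lysosomal genes, 9 rose and 1 fell, with a median of 0.50 beside the 0.05 of all genes. Ctsd, the aspartic protease cathepsin D whose CLEAR element is printed above, was at 37.9, 36.9, 35.2 and 47.7 CPM at 6 h and at 547, 556, 546 and 463 CPM at 24 h (log2 fold change 3.75, SE 0.10, adjusted p = 1.6e-09). The other rises were smaller, with Npc1, the cholesterol exporter of the lysosome, at 1.84 (SE 0.12), the sialidase Neu1 at 1.77 (SE 0.06) and the calcium channel Mcoln1 at 1.56 (SE 0.07). Lgmn, legumain, fell (-1.36, SE 0.23). Without the stimulus 12 of the list were higher and 0 lower. Ctsd there was at 226 to 318 CPM at 6 h and 1170 to 1467 CPM at 24 h (2.34). At each time these values lay above the stimulated ones. Npc1 rose there too (1.79), while Neu1 (0.64) and Mcoln1 (0.82) did not pass.

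Cholesterol synthesis fell through most of the pathway, 16 of 23 genes being lower and 1 higher, with a median of -1.62. Cyp51, the lanosterol demethylase, was at 95.1, 112, 108 and 112 CPM at 6 h and at 10.6, 10.2, 11.2 and 12.6 CPM at 24 h (log2 fold change -3.26, SE 0.09, adjusted p = 1.6e-09). Idi1, the isomerase of isopentenyl diphosphate, was at 25.7, 26.7, 22.8 and 27 CPM and at 1, 1.6, 2.09 and 2.54 CPM (-3.90, SE 0.24). Sqle, squalene epoxidase, fell by 3.00, Hmgcs1 by 1.58 and Srebf2, the regulator of the pathway, by 1.19 on the log2 scale. Nsdhl (-0.09), Dhcr7 (0.03) and Mvk (0.38) did not pass, and Tmem97, a sterol-binding membrane protein, rose (1.55, SE 0.25). Culture without the stimulus lowered 13 of the 23 and raised 0, with a median of -1.24. The oxysterol sensor gene Nr1h3, which encodes LXRα, went from 22.6, 14.7, 17.2 and 16.8 CPM to 103, 139, 118 and 98.8 CPM (2.69, SE 0.14), and its target Abca1, a cholesterol exporter, rose (1.44, SE 0.14). Ch25h, which makes the oxysterol 25-hydroxycholesterol, fell (-2.79, SE 0.16). Abca1 rose by as much in unstimulated cells (1.42), from 24.1 to 29.8 CPM to 64 to 94.8 CPM, whereas Nr1h3 did not pass there (0.54). With the stimulus Abca1 was at 20.3 to 29.4 CPM at 24 h.

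Glycolysis and hypoxia response genes included 10 of 27 that rose and 2 that fell. Pfkl, the liver-type phosphofructokinase, was at 11.8, 13.1, 14.2 and 13.3 CPM at 6 h and at 91.1, 184, 115 and 69.1 CPM at 24 h (log2 fold change 3.04, SE 0.24, adjusted p = 7.1e-07). Its platelet-type paralogue Pfkp went down, from 1378 to 1454 CPM to 233 to 290 CPM (-2.47, SE 0.07). Bnip3, a hypoxia-inducible mitophagy receptor, went from 0.82 to 1.5 CPM to 8.42, 26.2, 12.2 and 5.88 CPM (3.39, SE 0.40). Tpi1 (2.32), Vegfa (2.24), Aldoa (1.81) and Eno1 (1.42) rose, and Gapdh (0.72), Ldha (0.74) and Pkm (-0.52) did not pass. In Pfkl, Tpi1, Bnip3 and Aldoa library 56 was the highest at 24 h and library 58 the lowest, with 57 above 55. That order puts the libraries titled NFAM1+/+ above those titled NFAM1-/-, but the genotype tags of 56 and 58 say otherwise, and the part of genotype in these values was not tested here.

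Respiratory chain subunits encoded in the nucleus lay near the median of all genes, as 4 of 79 rose, 1 fell and the median was 0.09, or -0.05 with centred libraries, while 9 rose with total-read scaling. Of 84 cytosolic ribosomal protein genes, 18 fell and 1 rose, not far from the 16.7% of all genes that fell. Their median was -0.76, and the 6 h libraries lay wholly above the 24 h libraries in 71 of them, beside 34.3% of all genes. Rpl23a was at 89, 102, 109 and 110 CPM at 6 h and at 29.4, 29.2, 27.6 and 23.5 CPM at 24 h (log2 fold change -1.90, SE 0.09). Rps27l, a p53-inducible member, rose (1.15, SE 0.07). Scaled to total reads, 3 fell and the median was -0.39, and without the stimulus 0 passed in either direction, with a median of 0.08. Ribosomal protein genes have many processed pseudogenes, which can take some of their reads.

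Cell cycle and DNA replication genes were the lowest list, 31 of 36 falling with a median of -2.32. Top2a, the topoisomerase of dividing cells, was at 294, 435, 441 and 427 CPM at 6 h and at 8.01, 5.44, 4.68 and 7.97 CPM at 24 h (log2 fold change -5.96, SE 0.19, adjusted p = 2.8e-09). Cdk1, whose match to TTTNNCGC is printed above, was at 28.8, 43.2, 46.4 and 53.1 CPM and at 1.47, 0.787, 1.36 and 2.28 CPM (-4.93, SE 0.29). The mitotic kinesin Kif11 (-6.12) and the cyclins Ccna2 (-5.78) and Ccnb2 (-5.72) fell further than the replication licensing genes Mcm2 (-1.68) and Mcm3 (-1.27). E2f1 rose (1.65, SE 0.15). In unstimulated cells 29 of the 36 fell and 1 rose, with a median of -3.37, and Top2a there went from 454 to 520 CPM to 7.08 to 10.5 CPM. Ccnd2, a D-type cyclin, was at 1.11 to 2 CPM without the stimulus at both times and at 329 to 598 CPM and 77.7 to 132 CPM with it (-1.93, SE 0.20).

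Of 28 survival and cell death genes, 8 fell and 1 rose, but 3 fell and 3 rose with total-read scaling. Bax, the pore-forming death effector, was at 45, 49.8, 46.2 and 47.8 CPM at 6 h and at 163, 168, 166 and 125 CPM at 24 h (log2 fold change 1.71, SE 0.09), against 70.5 to 88.2 CPM in all unstimulated libraries. Bcl2a1d (-1.76) and Bcl2a1b (-1.62), near-identical survival genes whose reads cannot be fully separated, fell, as did Casp8 (-1.41), Bcl2 (-1.22) and the death receptor Fas (-1.10). Among 15 p53 targets and cell cycle inhibitors, Phlda3, an inhibitor of AKT, went from 0.155, 0.386, 0.591 and 0.324 CPM to 19.4, 14.2, 19.2 and 15.2 CPM (5.68, SE 0.35), Aen (1.16) and Zmat3 (1.01) rose, and Cdkn1a (-0.58) and Mdm2 (0.16) did not pass. Cdkn2c (-3.98) and Cdkn2d (-2.41) fell.

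Of 29 unfolded protein and heat shock genes, 4 rose and 3 fell, shares under the 16.2% and 16.7% of all genes, with a median of -0.01. Dnajb9 (log2 fold change 1.55, SE 0.13) led the rises, which included Hspe1 (1.28, SE 0.17), and Asns (-1.12, SE 0.06) was among the falls. With total-read scaling 9 rose, 1 fell and the median was 0.37. Of 19 NRF2 antioxidant genes, 4 rose and 0 fell. Osgin1 was at 4.96, 3.65, 3.6 and 2.64 CPM at 6 h and at 28.9, 35.3, 31.1 and 20.5 CPM at 24 h (2.97, SE 0.21). Hmox1, heme oxygenase, was at 127, 94.2, 80.5 and 145 CPM at 6 h. Its 24 h values ran from 144 CPM in library 58 to 544 CPM in library 56 (1.45, SE 0.35), so the times overlapped. Osgin1 (1.74) and Hmox1 (1.22) also rose in unstimulated cells. Of 13 iron handling genes, 4 rose and 1 fell, with Tfrc, the transferrin receptor, at 3.03 (SE 0.26) and Cp, ceruloplasmin, at -2.61 (SE 0.14).

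Markers of other cells also moved between the times. The 3 neutrophil granule genes Elane, Prtn3 and Mpo (-4.28, SE 0.39) fell, Mmp9 rose (2.43, SE 0.40) and the other 6 tested neutrophil markers, S100a8 and Camp included, did not pass, while the summed neutrophil list was at 118 to 380 CPM at 6 h and 129 to 224 CPM at 24 h. Progenitor markers fell in 3 of 4, with Kit at 91.7, 115, 102 and 90.7 CPM and then 33, 16.1, 25.1 and 36.2 CPM (-1.91, SE 0.21) and a summed level of 98.2 to 122 CPM and 19.4 to 37.5 CPM. Ighm, the immunoglobulin μ chain, was at 310, 330, 351 and 370 CPM at 6 h and at 36.3, 33, 39.8 and 37.1 CPM at 24 h (-3.22, SE 0.08), but of the 8 B cell markers 3 were in the table, and Cd79b went the other way (1.93, SE 0.38). Summed erythroid markers were at 8.09 to 43.2 CPM and 0.879 to 3.4 CPM. All 5 tested eosinophil and basophil markers fell although none separated the times, since library 11 was low at 6 h, with 7.06 CPM of Prg2 against 39.1 to 51.4 CPM in the other three. None of the NK cell markers was in the table, and T cell markers summed to at most 4.82 CPM. In unstimulated cells the summed progenitor markers were at 17.7 to 26.2 CPM at 6 h and 33.7 to 56.4 CPM at 24 h. The B cell list there was at 134 to 153 CPM and 127 to 198 CPM, beside 311 to 371 CPM and 34.5 to 42.4 CPM with the stimulus. The unstimulated neutrophil list went from 98.9 to 261 CPM to 572 to 989 CPM, with 9 of 12 markers higher at 24 h and 1 lower. The part of these cells in the lists above was not tested.

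The unstimulated libraries at 6 h need a remark before the time changes are compared. In each of them, and in none of the other 12 libraries, 22 genes reached 1 CPM, the highest value elsewhere being under 0.25 CPM. They include Pgc, pepsinogen C, at 87.8, 53.9, 45.1 and 31 CPM in libraries 1, 2, 3 and 4, Gkn1, a gastrokine, at 56.3, 32.8, 27.9 and 17.8 CPM, the proton pump genes Atp4a and Atp4b, the mucin Muc5ac and the trefoil factors Tff1 and Tff2, all known from gastric epithelium, and Clps, pancreatic colipase, at 21.2, 13, 11.7 and 8.01 CPM. The other groups had 7, 1 and 4 such genes (stimulated 6 h, unstimulated 24 h and stimulated 24 h). Gkn1 and Clps had 0 reads in every stimulated library, so they bear on the unstimulated side of the difference only. Their part in other genes was not tested.

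The difference of the time change with and without the stimulus was tested over 12306 genes, of which 1655 (13.4%) changed more upward with the stimulus and 2230 (18.1%) more downward. In this fit 42.6% of calls were upward, 68.1% with total-read scaling and 33.9% with centred libraries. Without the stimulus 1573 genes (12.8%) were higher and 933 (7.58%) lower at 24 h. Both time comparisons raised 488 genes and lowered 512, while 215 fell with the stimulus and rose without it and 28 did the reverse. The 2 time comparisons share no library.

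In the antiviral list 26 of 29 genes changed more downward with the stimulus and 0 upward. The same held for 16 of 18 interferon-inducible GTPases, 13 of 21 circulating monocyte genes with 1 upward and 23 of 84 ribosomal protein genes with 1 upward. Of 30 macrophage maturation genes, 21 differed downward and 2 upward, but 24 of the 30 passed the filter in the stimulated libraries alone. The rest passed only with unstimulated libraries counted, so the filter had a part in this count. In the cell cycle list 3 differed downward and 7 upward, and in the MHC class II list 4 differed downward, since the rises without the stimulus were larger. Mrc1, the mannose receptor, was among the 5 largest downward differences (-8.71): it was at 0.623 to 2.09 CPM at 6 h and at most 0.132 CPM at 24 h with the stimulus, and went from 1.14 to 1.86 CPM to 15 to 25.6 CPM without it. Tnfsf8, the CD30 ligand gene, was at 1.83, 2.16, 2.37 and 2.45 CPM and then at most 0.146 CPM with the stimulus, and at most 0.109 CPM and then 0.56 to 1.39 CPM without it (-9.13). Also among them were 4930570G19Rik (-8.74), Ctnnd2 (-8.41) and Ctgf (-8.20), the gene of connective tissue growth factor. Mrc1, Ctnnd2 and 4930570G19Rik did not pass the filter in the stimulated libraries alone. They were tested only with unstimulated libraries counted, so the filter had a part in their being listed, whereas Tnfsf8 and Ctgf passed in both. The 5 largest upward differences, Gkn1, Pgc, Gkn2, Krt8 and Clps, were all of the 22 genes found in unstimulated 6 h libraries alone. Restricted to genes that also passed the filter in stimulated libraries, 1554 differed upward and 1992 downward, and the largest upward differences, named after their values were seen, were Ccdc184 (7.37), Gpr4 (6.59), Adm (6.07), Htra3 (5.90) and Phlda3 (5.86).

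**Figure D4:**
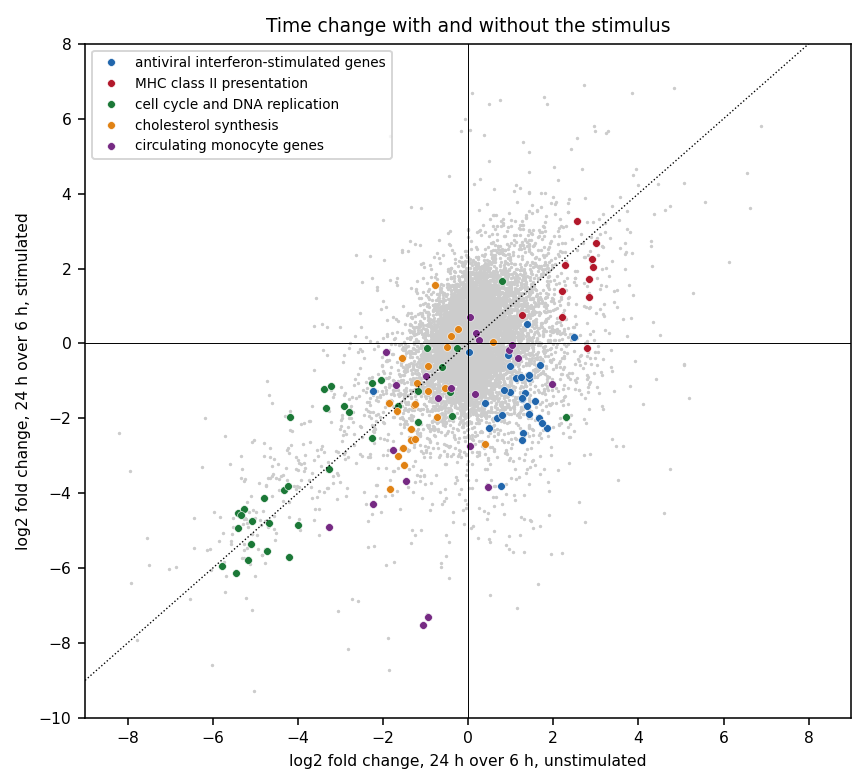
Log2 fold change between 24 h and 6 h with the stimulus (y axis) against the same without it (x axis) for 11431 tested genes in grey, with 5 gene lists coloured and a dotted line where both changes are equal. Most antiviral genes lie at positive x and negative y, with 18 of 29 called higher without and 19 called lower with the stimulus, whereas most cell cycle genes lie along the dotted line.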

How the data were processed

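Monocyte RNA was sequenced by the authors from polyA-selected, unstranded TruSeq libraries as pairs of reads. Per the methods and the submitters' processing notes, reads were checked with FastQC, aligned with STAR to GRCm39 (mm39), counted with Rsubread and normalized with edgeR, and the authors deposited log2 CPM per gene; versions, annotation and the filter that left 13085 genes are not given in the sources used here. Unstranded counting cannot separate a gene from an antisense or overlapping partner. Labels and methods differ on the source of the monocytes, peripheral blood or bone marrow, and on the IFN-γ dose.

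Libraries were grouped by the stimulus and time in their titles. The deposited log2 values came out as whole reads for 100% of values within 0.1 read, after removing an offset of 0.5 reads scaled to library size. Recovered reads over the scaled library size were 1.24 to 1.32 at 6 h and 0.970 to 0.997 at 24 h, so the deposited scaling differed between times. No pair of stimulated libraries agreed within sampling noise (chi-square per degree of freedom 19 to 175). The main fit was limma 3.58.1 in R 4.3.3 with a variance trend, on genes that reached 1 CPM in 4 or more libraries of the fit (11431 genes, with 1654 below the filter), Benjamini-Hochberg adjusted, at 0.05 and 2-fold. The difference between conditions used all 16 libraries. An exact permutation test of 4 against 4 libraries cannot go below 0.0286 and was not used. The script was tested on simulated data. Named genes were the 10 largest non-overlapping rises and falls, the largest changes and role-defining members of each list, the 5 largest differences in each direction and Nfam1. A few genes are not reported here. The members and lists were chosen with earlier results of these data known. Promoters are of GRCm38.p6, an older build than that of the reads. Bounds and floors cover counting error only. Alternatives were other filters, scalings, variance priors, weights, genotype covariates and left-out libraries.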

Additional observations from a re-analysis of the deposited data

Results flagged for a closer look

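In 21 of 274 groups of 4 libraries tested for the named genes, 1 library stood away from the other three, the gap being given here as a share of the group's range on the log2 scale. Chance alone gives about 1 in 20 such groups. At 6 h library 26 stood below the others for Top2a (0.922), Hist1h1b (0.916), Kif11 (0.905), Ndufs7 (0.842) and Iigp1 (0.8294), and above them for Ccl24 (0.884) and Cplx2 (0.928). Library 11 was the low one for Adam11 (0.851) and Adamtsl5 (0.857), and library 10 for Ctsk (0.892) and Ctnnd2 (0.884). At 24 h library 58 stood below the others for Ctsk (0.907), Ctsd (0.899), Bax (0.895) and Ccl24 (0.865) and above them for Ctgf (0.949). Library 56 was the low one at 24 h for Slamf1 (0.928) and Ido1 (0.866), and the high one for 4930570G19Rik (0.894). Library 57 was the high one for Igkv1-117 (0.858) and Pgc (0.899). The gaps of Adamtsl5, Cplx2, Ctgf, Igkv1-117, Pgc and 4930570G19Rik lie between 0 reads and a few reads.

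The time change differed between stimulated and unstimulated cells, by the test of the difference itself, upward with the stimulus in 1655 genes and downward in 2230. The named upward differences were Gkn1 (log2 difference 11.94), Pgc (11.72), Gkn2 (11.47), Krt8 (10.84) and Clps (10.65), which come from values in the unstimulated 6 h libraries. The named downward differences were Tnfsf8 (-9.13), 4930570G19Rik (-8.74), Mrc1 (-8.71), Ctnnd2 (-8.41) and Ctgf (-8.20). Of these, 4930570G19Rik, Mrc1 and Ctnnd2 passed the filter only with unstimulated libraries counted.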

How the results depend on the processing

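The number of genes higher at 24 h with the stimulus, 1848, became 1229 with a mean of at least 5 CPM, 3011 with total-read scaling and 4578 with no minimum fold, and the number lower, 1907, became 4244 with no minimum fold. Of the differences between conditions, 1655 upward became 3173 with total-read scaling and 4313 with no minimum fold, and 2230 downward became 1469 with a mean of at least 5 CPM, 1486 with total-read scaling and 3855 with no minimum fold. Leaving out each library in turn gave 1815 to 1883 higher and 1882 to 1950 lower with the stimulus, and 1586 to 1698 upward and 2170 to 2252 downward differences. The other alternatives for these counts (quantile normalization, centred libraries, no filter, other variance priors, voom weights, a test against 1.5-fold, genotype covariates and subsets by genotype label) stayed within 1.5 times. No main call took the opposite sign in any setting.

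Medians of 10 lists changed sign in at least 1 setting. With total-read scaling and quantile normalization respectively, MHC class I presentation went from -0.15 to 0.22 and 0.36, chemokine receptors from -0.20 to 0.18 and 0.09, JAK-STAT, SOCS and IRF genes from -0.34 to 0.0311 and 0.0163, effector enzymes from -0.24 to 0.131 and 0.0430, macrophage maturation genes from -0.17 to 0.20 and 0.0532, and complement and oxidase genes from -0.33 to 0.0481 and 0.0771. Chemokine receptors were also at 0.0747 with a mean of at least 5 CPM and between -0.356 and 0.0316 in the fits without 1 library (the latter without library 26), and respiratory chain subunits went from 0.09 to -0.0458 with centred libraries. The other three lay close to 0, with costimulatory molecules going from -0.03 to 0.34 and unfolded protein and heat shock genes from -0.01 to 0.37 with total-read scaling, and CD40 and NF-κB genes from 0.05 to -0.0935 with centred libraries. The cause was not tested. Of the named genes, 10 came within 2-fold with total-read scaling, 8 with quantile normalization and 3 with centred libraries, and Ptges in 5 of the 8 fits without 1 library. The restriction to genes that also passed in stimulated libraries was chosen after seeing the data. No paired analysis was possible because the groups share no replicate numbers. Depth limits the genes under 1 CPM, where a few reads set the fold.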

Other observations

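Some genes were found with 1 group of libraries alone, at 1 CPM or more in each of its 4 libraries and under 0.25 CPM in each of the other 12. Stimulated cells at 24 h had 4 such genes, Ccdc184, Adm, Ankrd34c and Gm20796, with the highest library at 3.93, 1.72, 1.44 and 2 CPM. Stimulated cells at 6 h had 7, among them Uaca, at 1.47, 1.55, 1.69 and 1.94 CPM in libraries 26, 10, 11 and 12, and En2, a homeobox gene, at 1.16, 2.27, 3.21 and 2.64 CPM. The other five were predicted or unnamed transcripts, 4921529L05Rik reaching 4.33 CPM. All are low values and were chosen by this pattern, so they are given without a test.

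Xist, the RNA of the inactive X chromosome, was present in every library, and the single sex-linked marker in the table did not pass between times (log2 fold change -0.74, SE 0.08). One gene list held opposite changes of paralogues that share a step: phosphofructokinase genes Pfkl (3.04) and Pfkm (1.13) rose while Pfkp fell (-2.47). A like division was seen in the Fc receptors, where Fcgr2b (1.82) rose and Fcgr1 (-2.39) and Fcgr4 (-1.56) fell.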
